A study of Caenorhabditis elegans with 80 samples.

Results

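The metallothionein and ferritin genes of Caenorhabditis elegans are 4 members of the 46904 genes in the deposited table, taken by name: mtl-1, mtl-2, ftn-1 and ftn-2. Metallothioneins are small cysteine-rich proteins that bind zinc, copper and cadmium, and in the worm both genes are switched on by cadmium in the intestine. Ferritins assemble into hollow shells that store iron in a form that does not react, so they limit the free iron that can make oxygen radicals. In the worm, ftn-1 is the strongly iron-inducible gene of the intestine, repressed by HIF-1 when iron is scarce, and ftn-2 is the more broadly and more evenly expressed one. Both mtl-1 and ftn-1 are known as genes raised by DAF-16, the FOXO transcription factor held in check by insulin signalling.

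RNA from whole hermaphrodites was sequenced in 80 libraries, as paired reads of 150 nucleotides. Wild-type N2 worms were sampled at 5 ages, counted as 6, 8, 11, 14 and 18 days, with 6 libraries per age, which are called the time course here. Strain CF1038, which carries the daf-16 deletion allele mu86, was collected at day 6 in 20 libraries, and 30 further N2 libraries at day 6, numbered apart from the time course in their library names, form the second N2 set that CF1038 was compared with. Worms of every group grew at 20 °C on OP50-1 bacteria with streptomycin at 200 µg/mL, and FUDR, which blocks DNA synthesis and so progeny, kept the populations synchronous. Each library pools many animals of mixed tissues, 1 mutant strain stands for the loss of DAF-16, and all 80 libraries carry the same batch label.

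Library totals ran from 34443138 to 44161452 counts, and levels are given as CPM, counts normalised to library size with TMM scaling. The targeted gene daf-16 stood at 75.5 to 107 CPM in CF1038 and at 134 to 191 CPM in the second N2 set, with no overlap, and reads of the gene were still counted in CF1038. No pair of libraries in a group was alike within sampling noise. Separate cultures are not stated in the labels, and p-values therefore measure the spread between these libraries, which may be technical.

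On WBcel235, 3 members lie on the minus strand of chromosome V: mtl-1 (WBGene00003473) from 6691371 to 6691863, mtl-2 (WBGene00003474) from 14018270 to 14018673, and ftn-1 (WBGene00001500) from 7546468 to 7547579. The fourth, ftn-2 (WBGene00001501), lies on the minus strand of chromosome I from 3680180 to 3680927. Each has 1 annotated transcript and no overlapping gene. The metallothionein transcripts have 2 exons, 373 nt of exon for mtl-1 and 347 nt for mtl-2, and encode 75 and 63 residues. The ferritin transcripts have 3 exons, 606 nt for ftn-1 and 651 nt for ftn-2, and each encodes 170 residues. Every one of the 80 values of each member was a whole number, so the counting model split no read between paralogs in fractions.

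Across the 5 ages all 4 members changed in the joint test over ages (edgeR quasi-likelihood F test, adjusted p = 1.63e-06 for mtl-1, 0.00802 for mtl-2, 2.29e-10 for ftn-1 and 0.000115 for ftn-2). That test called 80.2% of the 16710 genes tested, so being called is near the background, and what sets the members apart from each other is their course. The metallothionein mtl-1 dipped at day 8 and peaked at day 11, the inducible ferritin ftn-1 rose at day 11 and stayed up, mtl-2 passed the test as lower at days 14 and 18 and had a like mean at day 8 without passing, and the broadly expressed ferritin ftn-2 fell at day 18.

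**Figure D1:**
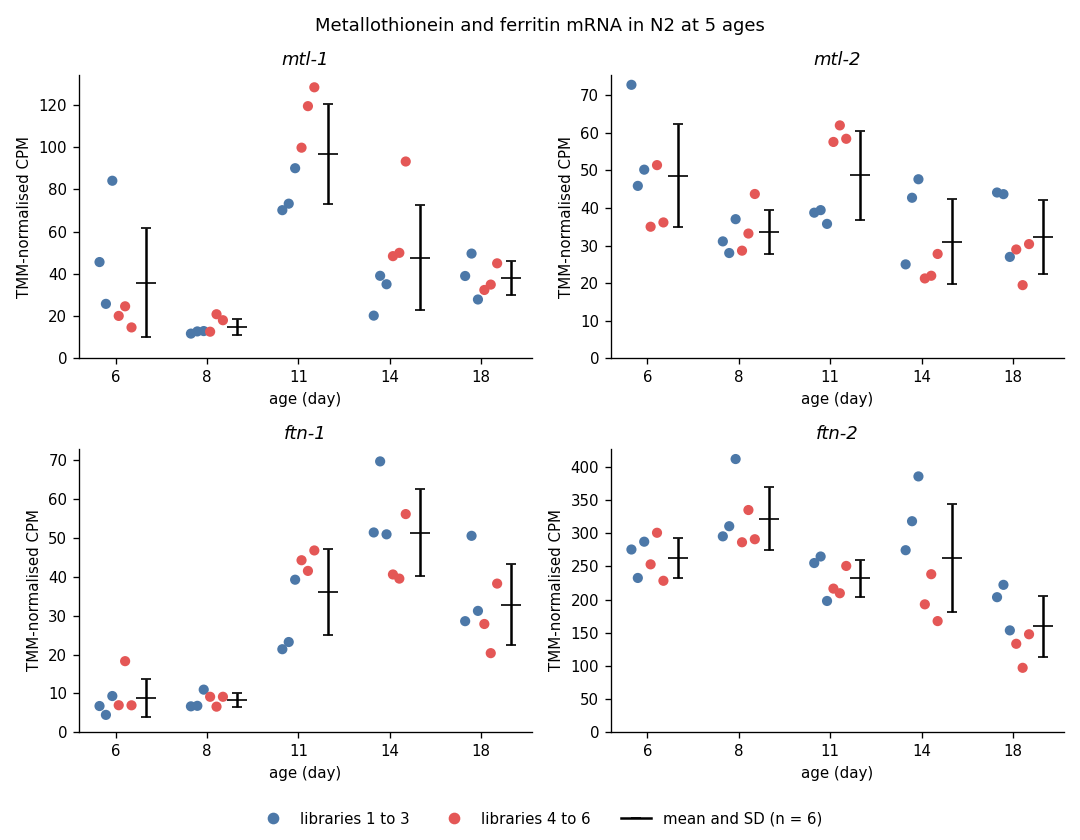
Level of each member in TMM-normalised CPM (y axis) at the 5 N2 ages in days (x axis), 1 point per library, with the mean and SD of 6 libraries beside them. Blue points are libraries 1 to 3 and red points libraries 4 to 6 of an age; ftn-1 at days 11 to 18 lies wholly above its day 6 points, and mtl-1 is highest at day 11.

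The level of mtl-1 ran from 14.7 to 84.1 CPM at day 6 (median 25.2, n = 6). It ran from 11.8 to 20.9 at day 8 (median 12.9) and from 70.1 to 128 at day 11 (median 94.8). At day 14 it ran from 20.3 to 93.2 (median 43.7) and at day 18 from 27.9 to 49.6 (median 37.0). The day 11 libraries stood clear of those of day 8, as they did for 19.7% of tested genes. Day 6 and day 14 were the ages with the widest scatter, and 1 day 6 library reached into the day 11 range. Against day 6, mtl-1 fell by 1.27 on the log2 scale at day 8 (SE 0.33, adjusted p = 0.0134), where 11.7% of genes were called. It rose by 1.43 at day 11 (SE 0.33, adjusted p = 0.000943), where 43.9% were called. The log2 differences were 0.41 at day 14 (adjusted p = 0.287) and 0.09 at day 18 (adjusted p = 0.832), neither past the threshold of 0.05.

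The step from day 8 to day 11 was the steepest for mtl-1, a 6.51-fold rise from 14.9 ± 3.73 to 96.8 ± 23.7 CPM (SD, n = 6; log2 2.703, SE 0.35, adjusted p = 1.62e-06), and it held in libraries 1 to 3 (log2 2.61) and in libraries 4 to 6 (2.74). The comparisons with day 6 rested on which day 6 libraries were used. The fall at day 8 did not pass without the libraries numbered 1 (log2 -1.13, adjusted p = 0.0642) or 3 (-0.78, adjusted p = 0.147), and the rise at day 11 was 0.56 in libraries 1 to 3 (adjusted p = 0.225), 2.55 in libraries 4 to 6 (adjusted p = 1.74e-05) and 0.79 with all 36 N2 day 6 libraries as the reference (adjusted p = 0.0516). At day 14 the difference from day 6 passed without the libraries numbered 3 (0.94, adjusted p = 0.0153).

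The level of mtl-2 ran from 35.02 to 72.7 CPM at day 6 (median 48.0), from 28.03 to 43.7 at day 8 (median 32.2) and from 35.8 to 62.0 at day 11 (median 48.5). It ran from 21.3 to 47.6 at day 14 (median 26.4) and from 19.5 to 44.1 at day 18 (median 29.7). Every older age overlapped day 6. The log2 difference from day 6 was -0.53 at day 8 (SE 0.22, adjusted p = 0.110) and 0.00 at day 11 (SE 0.22, adjusted p = 0.995). It fell by 0.64 at day 14 (adjusted p = 0.0129) and by 0.59 at day 18 (adjusted p = 0.0217), comparisons in which 56.7% and 57% of genes were called. The day 14 call was lost without the libraries numbered 1 (log2 -0.44, adjusted p = 0.109), and the day 18 call without those numbered 3 (-0.53, adjusted p = 0.0561) or 5 (-0.46, adjusted p = 0.0948). In libraries 1 to 3 neither passed (both log2 -0.56, adjusted p = 0.0623 and 0.0731), and in libraries 4 to 6 both did (-0.80 and -0.65). At day 11 mtl-2 split by library number, 35.8 to 39.4 CPM in libraries 1 to 3 and 57.6 to 62.0 in libraries 4 to 6.

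Among the ferritins, ftn-1 was the lowest of the members in young worms per kilobase of exon and had the largest change from day 6. It ran from 4.47 to 18.3 CPM at day 6 (median 6.95) and from 6.59 to 11.0 at day 8 (median 7.97). It then ran from 21.4 to 46.8 at day 11 (median 40.4), from 39.5 to 69.7 at day 14 (median 51.2) and from 20.4 to 50.6 at day 18 (median 29.9). From day 11 on, no library overlapped day 6. Against day 6, ftn-1 rose 4.11-fold at day 11 (log2 2.04, SE 0.27, adjusted p = 7.23e-07), 5.85-fold at day 14 (2.55, SE 0.27, adjusted p = 5.05e-09) and 3.73-fold at day 18 (1.90, SE 0.27, adjusted p = 4.97e-07). Groups did not overlap for 29.2%, 25.4% and 40.4% of tested genes in these comparisons. The day 8 difference was -0.10 (adjusted p = 0.854), and it was 0.31 without the libraries numbered 5 (adjusted p = 0.406), which hold the single high day 6 value. With all 36 N2 day 6 libraries as the reference the rises were 1.52, 2.05 and 1.38 at days 11, 14 and 18, all past the threshold.

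The most abundant member per kilobase of exon, ftn-2, ran from 228 to 301 CPM at day 6 (median 264), from 286.5 to 412 at day 8 (median 303) and from 198 to 265 at day 11 (median 234). It ran from 168 to 386 at day 14 (median 256) and from 97.2 to 222 at day 18 (median 151), where every library lay below every day 6 library. Against day 6 it fell by 0.72 on the log2 scale at day 18 (SE 0.17, adjusted p = 0.000547). In that comparison 57% of tested genes were called and groups did not overlap for 40.4%. The differences at days 8, 11 and 14 were 0.29 (adjusted p = 0.274), -0.18 (adjusted p = 0.407) and -0.00052 (adjusted p = 0.998). The day 18 fall was larger in libraries 4 to 6 (-1.06) than in libraries 1 to 3 (-0.46), and both passed (adjusted p = 2.41e-05 and 0.0391).

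Markers of the intestine, where both metallothioneins and ftn-1 are known to be expressed, were lower at day 18 as well, and so were those of some other tissues. The summed level of 15 intestinal markers, among them ges-1, act-5 and ifb-2, was 3297 ± 228 CPM at day 6 (range 3027 to 3640) and 1526 ± 608 at day 18 (range 881 to 2166; SD, n = 6 each), and 12 of the 15 fell at day 18 where 28% of all tested genes fell (median log2 -1.13). All 10 body wall muscle markers fell too, their sum going from 2978 ± 578 to 837 ± 196 CPM, 5 of 9 hypodermal markers fell and 1 rose (1668 ± 229 to 705 ± 166 CPM), and all 11 sperm markers rose, where 29% of tested genes did (10.6 ± 3.58 to 815 ± 304 CPM; SD, n = 6). Among 11 germline markers 7 fell and 1 rose, and among 10 neuronal markers 4 fell and 1 rose. At day 11 against day 6, where 24.1% of tested genes rose and 19.9% fell, all 11 sperm and 6 of 10 neuronal markers rose. In that comparison 5 of 10 body wall muscle and 4 of 11 germline markers fell, and 5 of 9 hypodermal markers fell and 1 rose. The intestinal sum was 4315 ± 728 CPM at day 11, with 4 of 15 markers higher and 3 lower. None of these markers was at 0 in all libraries of the time course, and the part of tissue makeup in the changes of the members was not tested beyond the scaling given next. At day 14 the intestinal sum was 5912 in libraries 1 to 3 and 3165 in libraries 4 to 6, and ftn-2 was 326 and 199.6 CPM there. Per 1000 CPM of these markers, a scale chosen after seeing the data, ftn-2 stood at 79.7 ± 6.68 at day 6 and at 110.4 ± 23.3 at day 18, which is higher by 0.45 on the log2 scale (SE 0.13, exact 2-sided permutation test, p = 0.00649, adjusted over 20 comparisons p = 0.0108). On that scale mtl-2 was also higher at day 18 (0.61, adjusted p = 0.0404), in the opposite direction to its CPM, mtl-1 was higher (1.53, adjusted p = 0.0200) and ftn-1 was 3.20 higher (adjusted p = 0.00481). The marker sum itself fell from 3297 to 1526 CPM by day 18, so a gene with unchanged CPM would also be higher on that scale. At days 11 and 14 scaled ftn-2 was lower than at day 6 (-0.55 and -0.43, adjusted p = 0.00481 each). Scaled mtl-2 was lower at days 8 and 14 (-0.84 and -1.05, adjusted p = 0.00866 and 0.00481). Scaled mtl-1 was lower at day 8 (-1.38, adjusted p = 0.00481) and higher at day 11 (1.28, adjusted p = 0.0247). Scaled ftn-1 was higher at days 11 and 14 (1.75 and 2.29, adjusted p = 0.0108 and 0.00481). Values of all tested genes on this scale were not computed, and these p-values do not mark the members off from other genes. In RNA from whole worms, fewer cells of a type and less RNA per cell cannot be told apart.

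**Figure D2:**
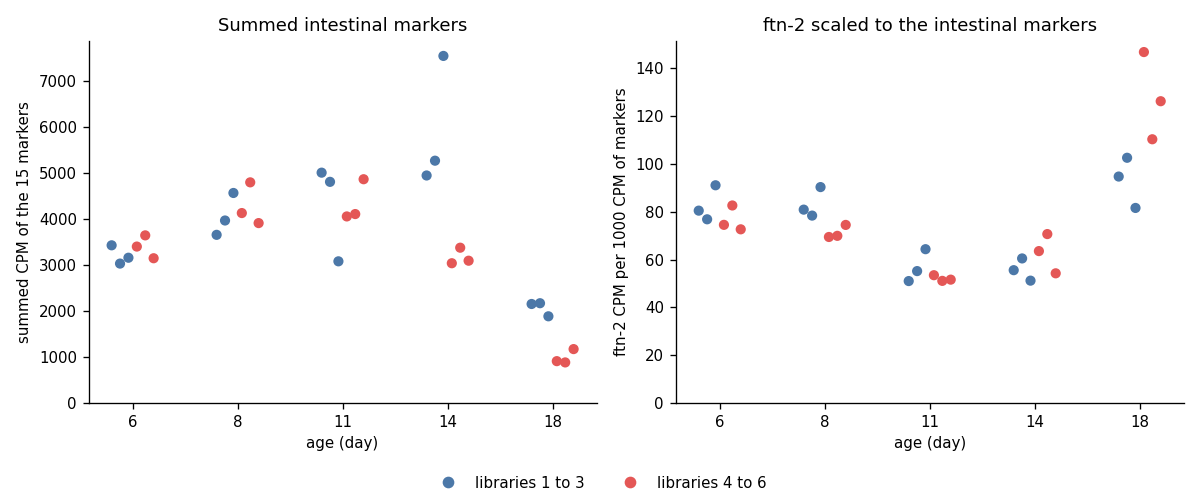
Left, summed CPM of 15 intestinal markers (y axis) by age in days (x axis); right, ftn-2 CPM per 1000 CPM of those markers; 1 point per N2 time-course library, blue for libraries 1 to 3 and red for libraries 4 to 6. The marker sum is lowest at day 18, where ftn-2 per marker is 110.4 on average against 79.7 at day 6. At days 11 and 14 ftn-2 per marker is 54.5 and 59.3 on average.

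Ordered by mean level, mtl-1 ran from day 8 (14.9 CPM) through day 6 (35.8), day 18 (38.1) and day 14 (47.7) to day 11 (96.8). Day 8 lay below day 6, with the exceptions given above. Of the other neighbours, day 6, day 18 and day 14 did not pass the test against each other, while day 14 was below day 11 (log2 -1.02, adjusted p = 0.0321). That last call was lost without the libraries numbered 1, 2, 4 or 5 (adjusted p = 0.0991, 0.0919, 0.0770 and 0.0848).

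For mtl-2 the order was day 14 (31.1 CPM), day 18 (32.3), day 8 (33.6), day 6 (48.6) and day 11 (48.6), and no neighbours in it passed the test. Days 8 and 6 were the closest to it (log2 -0.53, 95% interval -0.96 to -0.10, adjusted p = 0.110), with 4 of 6 day 8 libraries below every day 6 library, and days 18 and 8 differed by log2 -0.06 (adjusted p = 0.834), where 53.5% of genes were called. Between days 11 and 14, where 14.6% of genes were called, mtl-2 fell by 0.65 (adjusted p = 0.0420), a call lost without the libraries numbered 1, 4, 5 or 6 (adjusted p = 0.0696, 0.195, 0.178 and 0.125). Its difference between days 8 and 11 was 0.53 (adjusted p = 0.0633), which passed without the libraries numbered 3 (0.64, adjusted p = 0.0469).

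For ftn-1 the order was day 8 (8.22 CPM), day 6 (8.79), day 18 (32.8), day 11 (36.1) and day 14 (51.4). The gap lay between day 6 and day 18, and neither days 18 and 11 (adjusted p = 0.682) nor days 11 and 14 passed the test. Day 14 was higher than day 11 by 0.51 (95% interval 0.01 to 1.01, adjusted p = 0.200), by 1.05 in libraries 1 to 3, which passed (adjusted p = 0.0203), and by 0.03 in libraries 4 to 6 (adjusted p = 0.973). From day 8 to day 11 it rose 4.39-fold with no overlap (log2 2.13, SE 0.27, adjusted p = 1.1e-06), in a step in which 29.6% of genes were called and the groups did not overlap for 19.7%. Its fall of 0.65 from day 14 to day 18 (adjusted p = 0.0354), where 51% of genes were called, was lost without the libraries numbered 1, 3, 4 or 6 (adjusted p = 0.0841, 0.0982, 0.0662 and 0.0626).

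For ftn-2 the order was day 18 (159.7 CPM), day 11 (233), day 14 (263), day 6 (263) and day 8 (322). Day 18 lay below day 11, a comparison that called 49.9% of genes (log2 -0.54, adjusted p = 0.00819; -0.29 and adjusted p = 0.185 in libraries 1 to 3) and below day 14 (-0.72, adjusted p = 0.000732), and the other neighbours did not pass the test. Days 8 and 11, which are not neighbours in this order, did not overlap (log2 -0.47, adjusted p = 0.0344), but the call was lost without the libraries numbered 1, 3, 4 or 5 (adjusted p = 0.0586, 0.140, 0.0643 and 0.0712). Between these ages 29.6% of tested genes were called and groups did not overlap for 19.7%.

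The paralogs of a pair were compared per exonic length, as the log2 ratio of their counts per base in each library. Full exon length was used, with no correction for the length of the sequenced fragments. Which gene is the higher per base or per kilobase rests on that choice. Differences of a ratio between groups do not, since the length is a constant that drops out of them. At day 6 of the time course, levels per kilobase of exon were 404 ± 45.5 CPM for ftn-2, 139.96 ± 39.5 for mtl-2, 96.0 ± 69.3 for mtl-1 and 14.5 ± 8.09 for ftn-1 (SD, n = 6). Per base, ftn-2 exceeded ftn-1 in all 80 libraries. Which of mtl-1 and mtl-2 was the higher differed between ages of the time course, and also between N2 libraries of day 6.

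The log2 ratio of ftn-1 to ftn-2 ran from -5.59 to -3.93 at day 6 (median -5.01) and from -5.56 to -4.87 at day 8 (median -5.24). It ran from -3.47 to -2.19 at day 11 (median -2.28), from -2.82 to -1.47 at day 14 (median -2.23) and from -2.73 to -1.85 at day 18 (median -2.15). The libraries fell into a low range at days 6 and 8 and a high range from day 11 on, with no overlap between them. On average ftn-2 was 30.6-fold above ftn-1 at day 6 and 4.55-fold above it at day 18. The ratio was higher than at day 6 by 2.296 at day 11, 2.72 at day 14 and 2.75 at day 18 (SE 0.34, 0.29 and 0.26), each with p = 0.00216 in an exact 2-sided permutation test, the smallest that 6 against 6 libraries allow, and adjusted p = 0.00361 over 10 ratio comparisons. At day 8 the difference was -0.26 (exact permutation p = 0.359, adjusted p = 0.359), and it was 0.0086 without the libraries numbered 5.

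The log2 ratio of mtl-1 to mtl-2 ran from -1.40 to 0.64 at day 6 (median -0.92), from -1.62 to -0.77 at day 8 (median -1.33) and from 0.69 to 1.23 at day 11 (median 0.81). It ran from -0.54 to 1.64 at day 14 (median 0.42) and from -0.28 to 0.74 at day 18 (median 0.07). Thus mtl-2 was the higher of the pair per base in 5 of 6 libraries at day 6 and in all 6 at day 8, and mtl-1 in all 6 at day 11. The ratio was higher than at day 6 by 1.64 at day 11 (SE 0.31, exact permutation p = 0.00216, adjusted p = 0.00361), with no overlap. That holds against the 6 day 6 libraries of the time course. In the 30 N2 libraries of the second set, also at day 6, the ratio ran from -0.84 to 1.85, which spans the day 11 range. There mtl-1 was the higher in 10 libraries. The differences were -0.54 at day 8 (adjusted p = 0.0890), 1.19 at day 14 (exact permutation p = 0.0433, adjusted p = 0.0541) and 0.92 at day 18 (exact permutation p = 0.0238, adjusted p = 0.0340). Without the libraries numbered 3 the day 14 difference passed (1.67, adjusted p = 0.0106). The day 18 call was lost when the libraries numbered 1, 2, 4, 5 or 6 were left out (adjusted p = 0.0635, 0.0847, 0.102, 0.116 and 0.106), and the day 14 ratio split into -0.54 to -0.23 in libraries 1 to 3 and 1.08 to 1.64 in libraries 4 to 6.

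**Figure D3:**
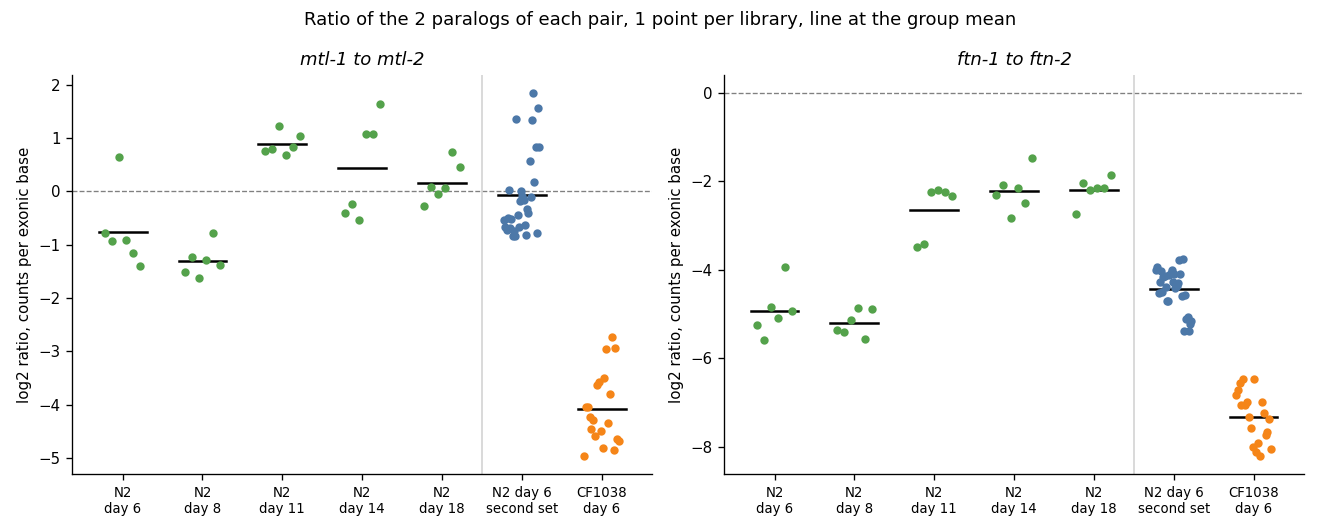
Log2 ratio of the paralogs of each pair in counts per exonic base (y axis) in the 7 groups (x axis), 1 point per library with a line at the group mean; the dashed line marks equal levels. The ftn-1 to ftn-2 ratio steps up between days 8 and 11, and both ratios in CF1038 (orange) lie below every N2 library of the second set (blue).

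The comparison of CF1038 with the second N2 set asked which members differ between the daf-16 mutant strain and N2 at day 6, and the paralogs parted in both pairs. The DAF-16 target mtl-1 was 7.94-fold lower in CF1038, its paralog mtl-2 was 2.05-fold higher, the DAF-16 target ftn-1 was 7.74-fold lower, and ftn-2 differed by less than its spread. Of 16126 genes tested, 38.7% were called in this comparison, and the groups did not overlap for 0.583%.

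Among the 30 N2 libraries, mtl-1 ran from 20.2 to 211 CPM with a median of 51.2. Among the 20 CF1038 libraries it ran from 2.77 to 22.8 CPM with a median of 5.49, and 18 of the 20 lay below the lowest N2 library. It fell by 2.99 on the log2 scale (SE 0.32, adjusted p = 1.05e-10), which ranked 31 of 16126 by size of change. The log2 difference was -2.34 in libraries 1 to 10 of both strains (adjusted p = 2.59e-07), -2.63 in libraries 11 to 20 (adjusted p = 6.2e-05) and -3.61 with N2 libraries 21 to 30 as the only reference (adjusted p = 4.48e-09).

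In the opposite direction, mtl-2 ran from 25.2 to 95.0 CPM in N2 (median 54.2) and from 64.8 to 173 in CF1038 (median 109.7), and 11 of 20 CF1038 libraries lay above the highest N2 library. The rise was 1.03 on the log2 scale (SE 0.13, adjusted p = 1.73e-08). It was 1.19 in libraries 1 to 10 of both strains (adjusted p = 0.000642) and 0.92 in libraries 11 to 20 (adjusted p = 3.85e-06). Beside it, the 504 tested protein-coding genes with under 400 nt of exon, a class that holds both metallothionein genes, had a median log2 difference of 0.14, with 191 higher and 58 lower where 18% and 20.7% of all genes were. Over age, of 572 such genes 19 were higher and 66 lower at day 8 against day 6 (5.55% and 6.12% of all genes). At day 11 against day 8, 153 were higher and 64 lower (18% and 11.7% of all genes). These are the directions of the mtl-2 differences there, neither of which passed. They are also the directions of the mtl-1 differences there, both of which were called, the day 8 fall with the exceptions given above. At day 14 against day 6, where mtl-2 was called lower, 192 were higher and 188 lower, beside 4986 and 4491 of all 16710 genes. At day 18 against day 6, where mtl-2 was also called lower, 223 were higher and 147 lower (29% and 28% of all genes). From day 11 to day 14 both metallothionein genes were called lower. In that step 116 short genes were higher and 87 lower, beside 1687 and 756 of all genes. Their median log2 difference was -0.11, beside -0.01 for all protein-coding genes. The part of transcript length in these results was not tested.

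For ftn-1 the second N2 set ran from 5.99 to 29.3 CPM (median 14.7) and CF1038 from 0.97 to 3.56 (median 1.81), so the strains did not overlap, with all 20 CF1038 values under the lowest N2 value. It fell by 2.95 on the log2 scale (SE 0.17, adjusted p = 4.26e-20), rank 32 by size of change. The CF1038 values rest on 35 to 148 counts per library. For ftn-2 the second N2 set ran from 232 to 446 CPM (median 305) and CF1038 from 242 to 429.6 (median 283), with broad overlap. The log2 difference was -0.03 (95% interval -0.17 to 0.11, adjusted p = 0.756). The summed intestinal markers stood at 3859 ± 573 CPM in N2 and 3855 ± 795 in CF1038 (SD), but single markers moved, 3 of 15 higher and 6 lower (median log2 -0.21). Of the other tissues, 8 of 11 sperm markers and 6 of 11 germline markers were higher, and 6 of 10 neuronal and 3 of 10 body wall muscle markers lower, and their part in the results was not tested.

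**Figure D4:**
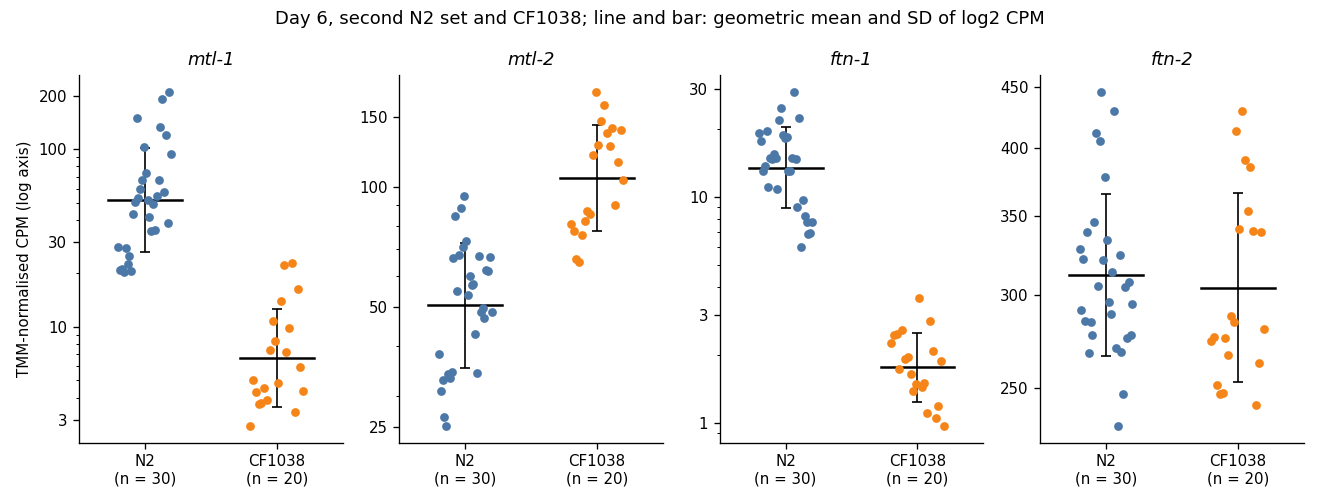
Level of each member in TMM-normalised CPM (log y axis) in the 30 N2 libraries of the second set and the 20 CF1038 libraries at day 6; each point is a library, the line the geometric mean and the bar the SD of log2 CPM. In CF1038 mtl-1 and ftn-1 are low, mtl-2 is high, and ftn-2 overlaps N2.

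Within CF1038 the balance of each pair was shifted beyond any N2 library of the second set. The log2 ratio of mtl-1 to mtl-2 per base ran from -0.84 to 1.85 in N2 (median -0.36) and from -4.96 to -2.73 in CF1038 (median -4.27). The mean difference was -4.01 (SE 0.21, permutation p = 2e-05, the smallest that 100000 resamples can give, adjusted p = 1e-04). The ratio of ftn-1 to ftn-2 ran from -5.38 to -3.76 in N2 (median -4.33) and from -8.20 to -6.47 in CF1038 (median -7.28), with a mean difference of -2.88 (SE 0.15, permutation p = 2e-05, adjusted p = 1e-04). On average ftn-2 stood 21.6-fold above ftn-1 per base in N2 and 159-fold above it in CF1038, and mtl-2 stood 1.05-fold and 16.9-fold above mtl-1.

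Day 6 N2 libraries of the same strain and age also differed among themselves. Between the second set and the time-course set none of the 4 members was called, where 18.8% of genes were, and the log2 differences were 0.74 for mtl-1 (SE 0.46, adjusted p = 0.246), 0.02 for mtl-2, 0.61 for ftn-1 (SE 0.27, adjusted p = 0.101) and 0.14 for ftn-2. At an unadjusted p under 0.05, 1 of the 4, ftn-1, differed (p = 0.0305). The SD of log2 CPM of mtl-1 over the 30 libraries was 0.98, above that of 97.4% of tested genes, and it was 0.52 for mtl-2, 0.59 for ftn-1 and 0.23 for ftn-2, against a median of 0.30.

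The levels differed between runs of library numbers. In the second N2 set mtl-1 ran from 20.2 to 50.7 CPM in libraries 1 to 10, from 34.5 to 150.3 in libraries 11 to 20 and from 34.9 to 211 in libraries 21 to 30. The mean of mtl-2 was 40.6, 67.7 and 52.9 CPM in these runs of 10, and in CF1038 it was 91.4 and 128.5 CPM in libraries 1 to 10 and 11 to 20. The mean of ftn-1 was 15.4, 18.3 and 9.93 CPM in the N2 runs. What the numbers stand for is not given in the labels, and its part in the spread was not tested.

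**Figure D5:**
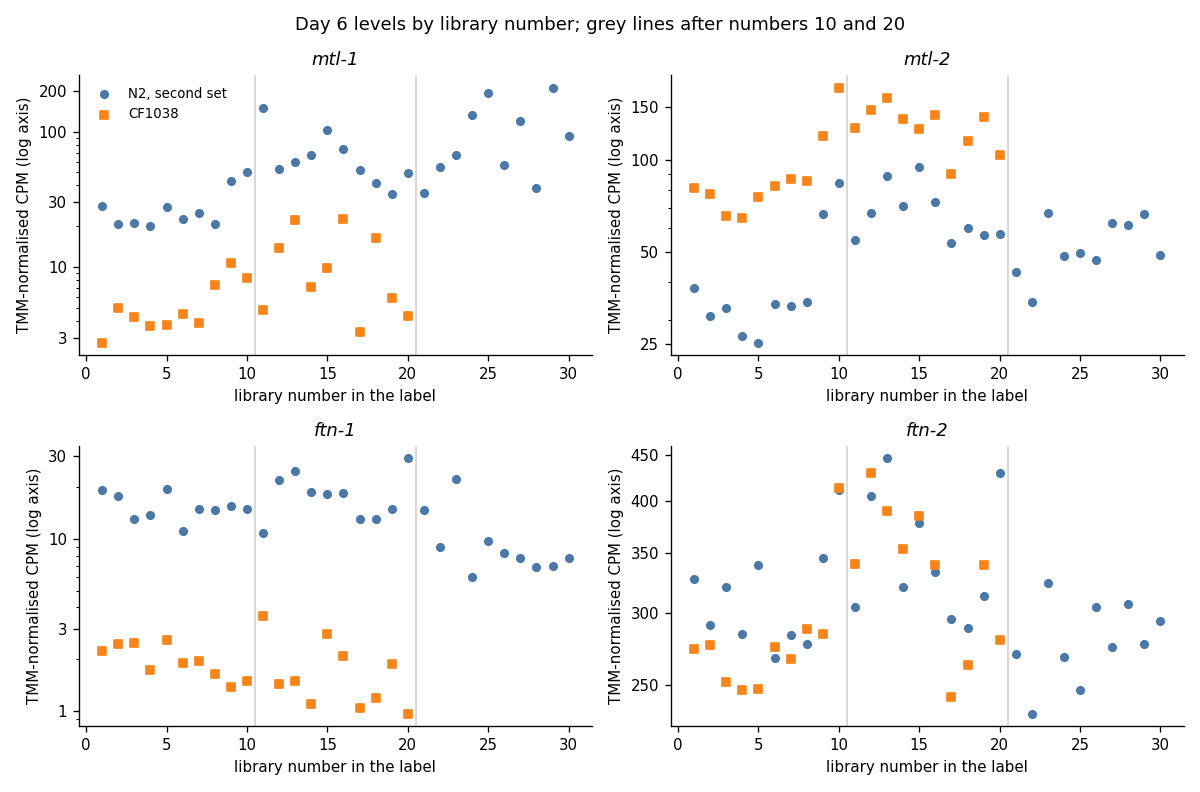
Level of each member in TMM-normalised CPM (log y axis) by the number in the library label (x axis) for the second N2 set (blue circles) and CF1038 (orange squares) at day 6; grey lines part the runs of 10. N2 libraries 1 to 8 are low in both metallothionein genes, and N2 and CF1038 stay apart for mtl-1 and ftn-1 within the first 2 runs.

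Across the libraries of 1 group the metallothionein paralogs moved together although their mean levels parted with strain. Over the 30 N2 libraries Pearson's r of log2 CPM between mtl-1 and mtl-2 was 0.60 and Spearman's rho 0.62 (permutation p = 0.00058 and 0.00046, adjusted over 4 relations p = 0.000773 and 0.000613), and r was 0.65 without the 2 libraries farthest from the median of mtl-1. Within the runs of 10, r was 0.89, 0.29 and 0.34, so it was not alike in all of them. Levels shifted between these runs, and the permutations were not kept within runs. The p-values of these relations therefore do not set such shifts aside. Over the 20 CF1038 libraries r was 0.72 and rho 0.73 (permutation p = 0.00056 and 0.0004, adjusted p = 0.000773 and 0.000613), 0.67 without the 2 farthest, and 0.72 and 0.69 within the runs of 10. The ferritin paralogs had r = 0.68 and rho = 0.72 in N2 (permutation p = 4e-05 and 2e-05, adjusted p = 0.00016 and 8e-05), 0.71 without the 2 farthest and 0.36, 0.90 and 0.24 within the runs of 10. In CF1038 they had r = 0.01 and rho = -0.06 (permutation p = 0.974 and 0.816, adjusted p = 0.974 and 0.816), with -0.56 and 0.47 within the runs of 10 and -0.12 without the 2 farthest.

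The other genes of metal handling moved in both directions. At day 18, where 29% of tested genes were higher and 28% lower, 2 of 12 tested iron genes rose and 4 fell. The frataxin gene frh-1 fell by 0.68, the ferroportin gene fpn-1.2 by 1.08 and the aconitase gene aco-1 by 0.28, and the metal transporter gene smf-1 rose by 0.43, all on the log2 scale (adjusted p = 1e-07, 1.18e-06, 0.00573 and 0.00697). In CF1038, where 18% were higher and 20.7% lower, 2 of 12 iron genes were higher and 7 lower. The hypoxia factor gene hif-1 was lower by log2 -0.32, its prolyl hydroxylase gene egl-9 by -0.30 and the nuclear receptor gene nhr-14 by -0.31, and frh-1 was higher by 0.26 (adjusted p = 8.03e-07, 0.00177, 1.91e-05 and 0.00195).

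Of 7 tested heme genes, 1 rose and 4 fell at day 18, and 1 was higher and 3 lower in CF1038. The secreted protease gene hrg-7 was lower in both comparisons (log2 -1.41 at day 18, adjusted p = 2.03e-05, and -1.32 in CF1038, adjusted p = 8.36e-16), and the heme exporter gene mrp-5 rose by 0.32 at day 18 (adjusted p = 0.0248) and was lower in CF1038 by -0.28 (adjusted p = 6.17e-06). The heme importer gene hrg-4 fell by 2.03 at day 18 (adjusted p = 2.41e-06), from a level of 1.09 ± 0.347 CPM (SD, n = 6). Also at low levels, hrg-6 and the heme-delivery gene hrg-3 fell by 1.25 each at day 18 (adjusted p = 0.000467 and 0.0135), and in CF1038 hrg-3 was higher by 0.40 and the heme importer gene hrg-1 lower by -0.23 (adjusted p = 0.0175 and 0.0198).

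Of 20 zinc genes, 3 rose and 8 fell at day 18, and 5 were higher and 5 lower in CF1038. The ZIP family transporter gene zipt-17 rose by 3.67 at day 18, from 0.164 ± 0.0801 to 2.11 ± 0.915 CPM (SD, n = 6; adjusted p = 5.47e-11), and zipt-2.3 fell by 1.64, zipt-1 by 0.63 and toc-1 by 0.55 (adjusted p = 8.73e-06, 4.93e-08 and 7.18e-07). In CF1038, zipt-13, zipt-2.1 and zipt-2.2 were lower by -0.46, -0.48 and -0.51, and the zinc exporter gene cdf-1 by -0.16 (adjusted p = 2.9e-07, 3.34e-06, 2.22e-05 and 5.68e-05).

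Of 13 tested genes of the cadmium and copper response, 1 rose and 8 fell at day 18, and 4 were higher and 3 lower in CF1038. The cadmium-responsive gene cdr-1 fell by 3.25 at day 18 (adjusted p = 9.08e-12) and was higher by 0.69 in CF1038 (adjusted p = 0.000695), and cdr-2 fell by 1.73 at day 18 (adjusted p = 1.64e-07) and was lower by -1.07 in CF1038 (adjusted p = 2.26e-11). At day 18 chca-1 fell by 3.01 and cdr-7 by 1.94 (adjusted p = 7.11e-11 and 1.37e-10), and in CF1038 chca-1 was higher by 0.75 and cdr-4 lower by -0.50 (adjusted p = 3.26e-07 and 1.68e-05). The median log2 difference of this list was -0.97 at day 18 and 0.04 in CF1038, beside -0.01 for all tested genes in each. The intestinal GATA factor genes elt-2 and elt-7 were not called at day 18, and elt-2 was lower by -0.22 in CF1038 (adjusted p = 0.00632).

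A list of 15 tested genes known to be raised by DAF-16, with sod-3 and lys-7 among them and no member included, had 12 lower and none higher in CF1038 (median log2 -0.93), the direction of mtl-1 and ftn-1. The list was chosen with earlier results of these data known, so its counts are a description and no independent support. At day 11, where 24.1% of genes were higher and 19.9% lower, 9 of the 15 rose and none fell (median 0.70), and from day 8 to day 11, where 18% were higher and 11.7% lower, 12 rose and none fell (median 1.01). Between the day 6 sets, both N2, 7 of the 15 were called, all of them higher in the second set (median 0.45), where 18.8% of genes were called in either direction. The list was thus lower in the time-course day 6 libraries that day 11 was compared with than in other N2 libraries of that age. At day 18 against day 6, 3 rose and 6 fell.

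The genes whose time course was most like that of a member were ranked by Pearson's r of log2 CPM over the 30 time-course libraries, which share the 5 ages, among 5365 genes with a symbol and a mean of at least 10 CPM. For mtl-1 these were the thaumatin-like gene thn-2 (r = 0.82), the acid ceramidase gene asah-1 (0.80), dod-3 (0.79), memo-1 (0.78) and the cathepsin B-like protease gene cpr-1 (0.77). For ftn-1 they were the C-type lectin gene clec-5 (0.93), the saposin-like gene spp-9 (0.90), ztf-13 (0.90), ttc-36 (0.90) and the Rh-related gene rhr-1 (0.90). For ftn-2 they were vrp-1 (0.96), cdr-6 (0.95), the glutathione S-transferase gene gst-36 (0.95), drr-1 (0.93) and cest-2.2 (0.93). For mtl-2 they were the ubiquitin-like gene ubl-5 (0.77), the ribosomal protein genes rpl-41.2 (0.76), rps-28 (0.75) and rpl-37 (0.72), and ostf-4 (0.74). These 5 have 108 to 327 nt of exon, where the median of the genes ranked is 1699 nt, and mtl-2 itself has 347 nt. No member was among the 5 nearest genes of another, and r between paralogs over the time course was 0.35 for the metallothioneins and -0.32 for the ferritins.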

How the data were processed

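The authors deposited expected counts per gene for 80 libraries. Per the submitters' processing notes, FastQC, STAR 2.7.11b, RSEM 1.3.3 and the build WBcel235 were used; no source used here gives the library preparation or its strandedness. Expected counts were rounded; 2.73% of deposited values were not whole. The 30 time-course libraries, and CF1038 with the second N2 set, were fitted separately with edgeR 4.0.16 (filterByExpr, TMM, robust quasi-likelihood F test, Benjamini-Hochberg over all tested genes, threshold 0.05). All 4 members passed the low-count filter in both fits. Standard errors were derived as |log2 fold change| over the root of F. CPM are TMM-scaled within each fit, so levels in different fits are not on 1 scale. Paralog ratios used 0.5 added to each count and were divided by exon length; scipy 1.17.1 gave the permutation tests. Alternatives used DESeq2 1.42.0, and R 4.3.3, limma 3.58.1 and Python 3.11.15 were the other software. The edgeR and permutation steps were tested on simulated data. The members and lists were chosen with earlier results of these data known. Named genes were the members, the 5 genes with the most similar time course of each, and, per metal list, up to 4 called genes with the smallest adjusted p at day 18 and in CF1038; mrp-5 at day 18, elt-2, elt-7, lys-7 and sod-3 were named after their values were seen. Further pairs of ages (14 and 8, 18 and 8, 18 and 11) were fitted too, and of these the text uses those for neighbours in level, picked after the levels were seen.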

Additional observations from a re-analysis of the deposited data

Results flagged for a closer look

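For each member and each paralog ratio, the 6 libraries of every N2 age were checked for a library far from the others, 30 groups in all, of which chance gives about 1 in 20. At day 6, library 5 had 18.3 CPM of ftn-1 while the others ran from 4.47 to 9.33, a gap of 0.65 of the whole range. At day 6, library 3 had a log2 ratio of mtl-1 to mtl-2 per exonic base of 0.64 while the others ran from -1.40 to -0.78, a gap of 0.69 of the range. In that library mtl-1 stood at 84.1 CPM and mtl-2 at 50.2.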

How the results depend on the processing

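The falls of mtl-1 and ftn-1 and the rise of mtl-2 in CF1038, and the rises of ftn-1 at days 11, 14 and 18, kept their direction and call under every alternative run. For the values that changed, the cause was not tested. Log2 differences follow, with "v" between the ages compared. With all 36 N2 day 6 libraries as reference: mtl-1 0.79 (11 v 6), -0.23 (14 v 6) and -0.55 (18 v 6); mtl-2 -0.53 (8 v 6) and -0.016 (11 v 6); ftn-2 -0.29 (11 v 6) and 0.00039 (strain); ratio of the mtl pair -1.11 (8 v 6) and 0.35 (18 v 6) and of the ftn pair -0.69 (8 v 6). In libraries 1 to 3, mtl-1 was 0.56, -0.73 and -0.42 (11, 14 and 18 v 6) and 0.31 (18 v 14), mtl-2 -0.81, -0.59, -0.56 and -0.56 (8, 11, 14 and 18 v 6), 0.027 (14 v 11), -0.00041 (18 v 14) and 0.25 (18 v 8), ftn-1 0.26 (8 v 6), 1.05 (14 v 11), -0.63 (18 v 14) and 0.41 (18 v 11), ftn-2 0.29 (14 v 6), and the mtl ratio -1.096, -0.038 and 0.27 (8, 14 and 18 v 6). In libraries 4 to 6, mtl-1 was -0.19, 1.68 and 0.90 (8, 14 and 18 v 6) and -0.77 (18 v 14), mtl-2 0.54 (11 v 6) and 0.74 (11 v 8), ftn-1 -0.66 (18 v 14), ftn-2 -0.44 (11 v 8) and -0.19 (14 v 11), and the mtl ratio 0.013, 2.42 and 1.57 (8, 14 and 18 v 6). Scaled to the intestinal markers, an alternative added after seeing the data like that of libraries 1 to 10 or 11 to 20 of both strains, mtl-1 was 1.53 (18 v 6), mtl-2 -0.84, -0.36 and 0.61 (8, 11 and 18 v 6) and ftn-2 -0.047, -0.55, -0.43 and 0.45 (8, 11, 14 and 18 v 6). With total counts only, mtl-2 was -0.63 and -0.040 (8 and 11 v 6), 0.59 (11 v 8) and 0.087 (18 v 8), and ftn-1 -0.54 (18 v 14). With no low-count filter, mtl-1 was -1.02 and mtl-2 -0.64 (14 v 11), ftn-1 -0.65 (18 v 14), ftn-2 0.012 (14 v 6) and mtl-2 -0.00069 between day 6 sets. With only the ages compared, mtl-2 was -0.54 (8 v 6), 0.53 (11 v 8), -0.64 (14 v 11) and -0.066 (18 v 14) and ftn-2 0.28 (8 v 6) and 0.016 (14 v 6). By medians the mtl ratio was 0.99 (18 v 6). For ftn-2 between strains, values were 0.10 with the 6 time-course libraries as reference, 0.14 with N2 libraries 21 to 30 and 0.13 with CF1038 libraries 11 to 20. Called genes numbered 7979 (8 v 6) with all 36, 3837 (8 v 6) and 6131 (14 v 11) in libraries 1 to 3, 523 (8 v 6), 4557 (11 v 6) and 2336 (11 v 8) in libraries 4 to 6, 3805 (8 v 6) and 1494 (14 v 11) with only the ages compared, against 1950, 7338, 4951 and 2443 for 8 v 6, 11 v 6, 11 v 8 and 14 v 11. Between strains they numbered 3477 with the 6 time-course libraries, 2875 with N2 libraries 21 to 30 and 3047 with CF1038 libraries 1 to 10, against 6238.

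Same-numbered libraries did not deviate together in every pair. Between ages their mean r ran from -0.068 to 0.22, against -0.044 to 0.014 for other numbers. Between strains it was 0.28, against -0.0051 for other numbers. Of these, 15 of 20 strain pairs and 5 of 6 pairs of days 14 and 18 were over 0.1. In the strain comparison 5 of 20 pairs were best with their own number. Since not every pair was over 0.1 and the labels name no shared source, the numbers were not taken as pairs, although they carry some shared variation. With the replicate number as a block, 10274 genes were called between strains and ftn-2 was -0.10 (adjusted p = 0.0474). With the block, the mtl ratio was 1.64 (11 v 6) and 0.92 (18 v 6) and the ftn ratio 2.296, 2.72 and 2.75 (11, 14 and 18 v 6), with adjusted p = 0.0521 in exact permutation tests, the smallest that 6 pairs reached, except 0.134 for 0.92.

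Leaving out each replicate number gave these ranges.
Called genes ran from 3282 to 4859 (11 v 8), from 906 to 1986 (8 v 6). ftn-1 ran from -0.40 to 0.021 (18 v 11), from -0.71 to -0.60 (18 v 14), from -0.19 to 0.31 (8 v 6). ftn-2 ran from -0.52 to -0.34 (11 v 8), from -0.0071 to 0.30 (14 v 11), from -0.12 to 0.067 (14 v 6). mtl-1 ran from -1.23 to -0.94 (14 v 11), from -0.054 to 0.94 (14 v 6), from -0.12 to 0.62 (18 v 6), from -1.49 to -0.78 (8 v 6). mtl-2 ran from -0.14 to 0.21 (11 v 6), from 0.43 to 0.64 (11 v 8), from -0.88 to -0.48 (14 v 11), from -0.80 to -0.44 (14 v 6), from -0.11 to 0.26 (18 v 14), from -0.71 to -0.46 (18 v 6), from -0.21 to 0.047 (18 v 8). ftn ratio ran from -0.36 to 0.0086 (8 v 6). mtl ratio ran from 0.82 to 1.67 (14 v 6), from 0.73 to 1.25 (18 v 6).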

Other observations

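In the second N2 set, where age does not vary, thn-2 and cpr-1, which were among the 5 genes nearest to mtl-1 in the time course, had r = 0.95 and 0.95 with mtl-1 over the 30 libraries, and asah-1 had 0.79. In CF1038 these values were 0.78, 0.81 and 0.80 over 20 libraries. For the 5 genes nearest to mtl-2 the corresponding r in the second N2 set ran from 0.04 for rpl-41.2 to 0.57 for ostf-4, and for clec-5, the nearest to ftn-1, it was -0.29. These are descriptions over libraries that share depth and preparation, and the genes were picked for their likeness in the time course.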
